A study of Mus musculus with 9 samples.

Results

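The genes described here mark the maturation of granulocytes and monocytes, and their chromatin was read in mouse MLL-ENL leukemia. MLL-ENL is a fusion of the proteins encoded by KMT2A (MLL) and MLLT1 (ENL). The set holds 10 genes, Elane, Prtn3, Ctsg, Irf8, Ly6c2, Ms4a3, Cebpe, Mmp9, Ltf and S100a8, chosen by symbol and all found among the 26611 named genes of each count file. H3K27me3, the mark laid down by Polycomb repressive complex 2, and H3K4me3, a mark of active gene starts, were profiled by chromatin immunoprecipitation with sequencing, with 1 library per mark and genotype. The genotypes are a floxed line (labelled fl), a deleted line (labelled ΔERT2) and the deleted line with Flag-tagged Hhex added back (labelled ΔERT2 + Hhex-F, called rescue). Which gene is floxed is not stated in the labels, and its reading as Hhex rests on the series title; all 3 lines carry the leukemia, so none is a normal myeloid control. Whether the lines were single clones is not stated in the labels. With 1 library per group there is no replicate check, no test between groups was made, and every 95% interval covers counting error only.

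Granulocytes are built in stages that can be told apart by their granules. Promyelocytes make the azurophil granules with the serine proteases neutrophil elastase, proteinase 3 and cathepsin G, later cells make the specific and gelatinase granules, and the transcription factors C/EBPε and IRF8 steer cells towards the granulocyte and the monocyte fate. The genes of the early granules are active in immature myeloid cells, which is the stage many acute myeloid leukemias resemble. Genes of the late granules are silent or low at that stage.

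Named genes held 2444487, 2535576 and 4203349 H3K27me3 counts in the floxed, deleted and rescue libraries, and 645240, 420701 and 395133 H3K4me3 counts. Counts were divided by these totals and are given as CPM, counts per 1000000. H3K27me3 was counted over whole gene spans, and H3K4me3 over a window of 301 bp per gene. The H3K4me3 windows of the 10 maturation genes summed to between 882 and 1140 CPM in the 3 libraries, against 31.0 to 60.7 CPM for 10 T-cell and NK-cell genes, 57.3 to 90.3 CPM for 10 B-cell genes and 15.2 to 21.4 CPM for 10 mast cell, basophil and eosinophil genes. In those 3 lists between 2 and 7 of the 10 genes had no H3K4me3 count in a given library. Of the erythroid and megakaryocyte list, 10 genes summed to 101 to 147 CPM, and 9 stromal and endothelial genes to 268 to 397 CPM, so the stromal list was not near 0; its part in the results was not tested. These sums depend on how many genes of a list lie on each strand, as described next, and are no check of the cell type. Hhex itself had 332, 385 and 487 H3K27me3 and 60, 68 and 130 H3K4me3 counts in floxed, deleted and rescue, which span the whole gene or a fixed window and do not check the deletion.

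The H3K4me3 window did not sit at the start of every gene. Among genes longer than 5 kb, 59.1% of 6963 plus-strand genes but 2.32% of 6938 minus-strand genes averaged 20 or more counts in the 3 libraries. The gap narrowed in short genes, to 15.2% against 10.1% in genes of up to 2 kb, where either end lies close to the start. Such shares would be met with a window placed at the lower coordinate of each gene, which is the start of a plus-strand gene and the far end of a minus-strand gene. Elane, Prtn3, Irf8, Ltf and S100a8 lie on the plus strand, and their windows are read as promoter levels. Ctsg, Ly6c2 and Ms4a3 lie on the minus strand, and their windows are not read here as promoters. No strand was available for Cebpe and Mmp9, and their windows are not read as promoters either.

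**Figure D1:**
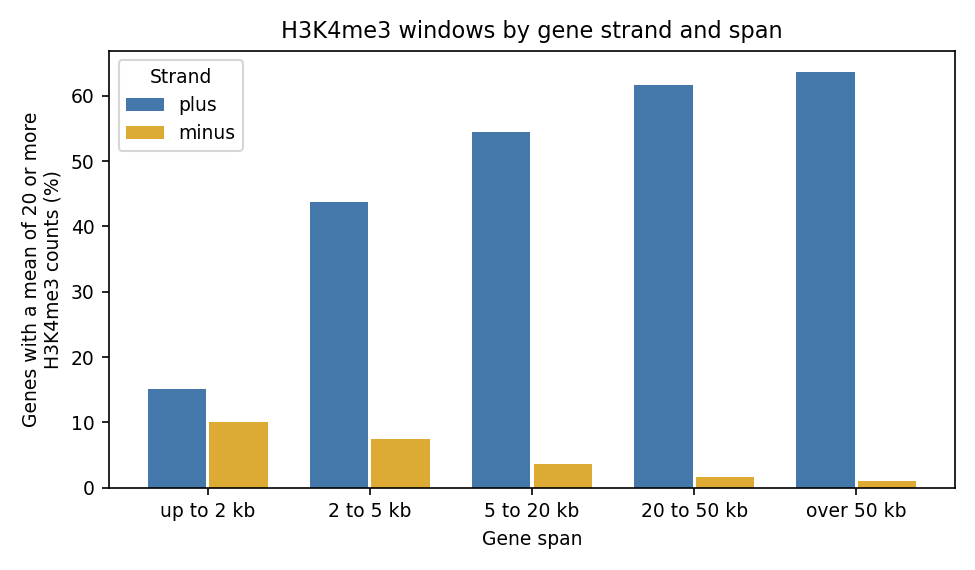
Share of genes that average 20 or more H3K4me3 counts (vertical axis, %) by gene span (horizontal axis) and strand (blue plus, yellow minus). Plus-strand genes rise from 15.2% in the shortest to 63.7% in the longest class, and minus-strand genes run from 10.1% to 0.976%.

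The promoters of the plus-strand genes that the H3K4me3 results turn on are shown here, from 250 bases before to 50 bases after the RefSeq start (build GRCm38.p6, the assembly of mm10), 5′ to 3′ on the plus strand. Elane is at chr10:79886062-79886361, Prtn3 at chr10:79879417-79879716, S100a8 at chr3:90668821-90669120 and Irf8 at chr8:120736108-120736407. Capitals mark GAGGAA or its longer form GAGGAAGT, on either strand, the core of the sequence bound by the myeloid factor PU.1.
Elane: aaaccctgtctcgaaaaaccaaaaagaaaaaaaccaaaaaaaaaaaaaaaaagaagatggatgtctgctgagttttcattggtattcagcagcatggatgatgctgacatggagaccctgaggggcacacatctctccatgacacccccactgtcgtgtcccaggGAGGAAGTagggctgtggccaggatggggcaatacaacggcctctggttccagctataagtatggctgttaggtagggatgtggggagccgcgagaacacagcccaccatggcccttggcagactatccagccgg
Prtn3: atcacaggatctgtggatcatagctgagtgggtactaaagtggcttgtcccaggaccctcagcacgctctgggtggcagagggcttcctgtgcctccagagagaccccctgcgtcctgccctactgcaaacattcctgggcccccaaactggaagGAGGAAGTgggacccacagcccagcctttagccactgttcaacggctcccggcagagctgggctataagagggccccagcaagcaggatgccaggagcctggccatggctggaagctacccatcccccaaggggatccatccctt
S100a8: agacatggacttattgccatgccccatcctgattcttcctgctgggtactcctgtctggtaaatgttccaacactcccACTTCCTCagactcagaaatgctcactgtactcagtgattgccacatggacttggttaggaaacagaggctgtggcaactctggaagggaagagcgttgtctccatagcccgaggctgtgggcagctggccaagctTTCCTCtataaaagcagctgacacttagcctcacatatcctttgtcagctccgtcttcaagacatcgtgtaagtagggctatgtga
Irf8: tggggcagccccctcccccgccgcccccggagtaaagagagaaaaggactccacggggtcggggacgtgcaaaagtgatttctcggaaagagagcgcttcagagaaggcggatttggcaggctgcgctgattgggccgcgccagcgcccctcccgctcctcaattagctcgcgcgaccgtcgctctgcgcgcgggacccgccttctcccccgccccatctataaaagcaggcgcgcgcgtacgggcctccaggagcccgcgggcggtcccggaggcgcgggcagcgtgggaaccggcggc
RefSeq promoters were matched for 8 of the 10 genes. The 8-letter form GAGGAAGT was found in 4 of the 8 (Elane, Prtn3, Ly6c2 and S100a8), against 3.20% of all 32851 promoters in the table. The contained GAGGAA was found in 7 of the 8, all but Irf8, against 28.3% of all promoters. The C/EBP letters TTGCNNAA were found in Ms4a3 and Ltf, against 10.8% of all promoters, and the full palindrome TTGCGCAA in none, against 0.183%. Irf8 has 2 RefSeq starts, and the promoter shown is that of the upstream one. It differed in base composition, with 70.0% G or C and 38 CG pairs in 300 bases. Elane and Prtn3 had 50.7% and 60.7%, and Elane, Prtn3 and S100a8 had 6, 4 and 4 CG pairs. The promoter of the other Irf8 start, at chr8:120738389-120738688, had 54.7% and 8 CG pairs. Over all promoters in the table the medians were 52.7% and 7 CG pairs.

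Among the azurophil granule proteases, the deleted library had less H3K4me3 at Elane than either other library, while the neighbouring Prtn3 stayed within counting error. Elane, which encodes neutrophil elastase (chromosome 10, 79886312 to 79888216, mm10), had 91, 28 and 58 H3K4me3 counts in floxed, deleted and rescue, that is 141, 66.6 and 147 CPM. The floxed and rescue libraries lay close together and the deleted library was the low one. The size rule used throughout calls a gene lower or higher if its CPM changed 1.5-fold or more and the 95% interval of the ratio left out 1; it was applied to genes that average 20 or more counts, called measured. By this rule Elane was lower in deleted against floxed, with a ratio of 0.472 (0.297 to 0.728), and higher in rescue against deleted, with 2.21 (1.38 to 3.60). Its rescue to floxed ratio was 1.04 (0.736 to 1.46).

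Prtn3, which encodes proteinase 3 and starts 6.64 kb before Elane on chromosome 10 (79879667 to 79883174), had 124, 133 and 121 CPM from 80, 56 and 48 counts. The 3 libraries differed by no more than counting error, with a deleted to floxed ratio of 1.07 (0.749 to 1.53) and a rescue to deleted ratio of 0.913 (0.607 to 1.37). The Elane interval for deleted against floxed ends below where that of Prtn3 begins. Ctsg, which encodes cathepsin G (chromosome 14, 56099885 to 56102574), had 263, 181 and 258 CPM from 170, 76 and 102 counts in a window that is not read as its start. The intervals of its ratios, 0.686 (0.516 to 0.904) and 1.43 (1.05 to 1.95), left out 1, but the ratios did not reach 1.5-fold. As at Elane, the deleted library was the lowest of the 3 at Ctsg.

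Of the factor genes, Irf8 passed the size rule and Cebpe did not, and the difference between them was not tested. Irf8, which encodes a factor that favours monocytes and dendritic cells over granulocytes (chromosome 8, 120736358 to 120756694), had 68.2, 61.8 and 132 H3K4me3 CPM from 44, 26 and 52 counts. Here the rescue library was the high one and the floxed and deleted libraries were within counting error of each other. The deleted to floxed ratio was 0.906, with 1 inside its interval. Rescue exceeded deleted by a ratio of 2.13 (1.31 to 3.55) and floxed by 1.93 (1.27 to 2.95), and both passed the size rule. Cebpe encodes the C/EBP factor needed for specific granules (chromosome 14, 54710363 to 54712174), and which end of the gene its window covers was not settled. It had the highest window level of the set, 291, 259 and 294 CPM from 188, 109 and 116 counts. Neither of its ratios, 0.889 (0.696 to 1.13) and 1.13 (0.865 to 1.49), passed the rule.

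Of the surface protein genes, Ly6c2, a marker of monocytes (chromosome 15, 75108161 to 75112066), had 65.1, 33.3 and 45.6 H3K4me3 CPM from 42, 14 and 18 counts. In this window, which is not read as its start, it was lower in deleted against floxed, with a ratio of 0.511 (0.258 to 0.955). That interval ends close to 1. Rescue against deleted gave 1.37 (0.643 to 2.97). Ms4a3, a membrane protein of granulocyte and monocyte progenitors (chromosome 19, 11629499 to 11640851), had 2, 3 and 3 counts in a window that is not read as its start, so no promoter level is given.

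**Figure D2:**
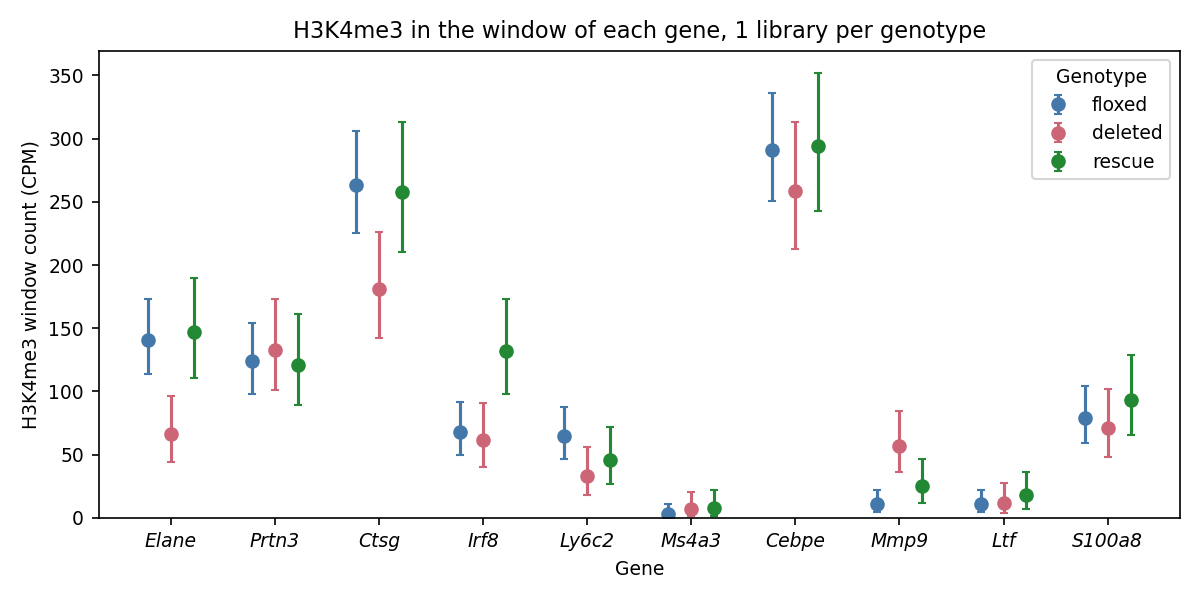
H3K4me3 in the 301 bp window of each gene (vertical axis, CPM) in the floxed (blue), deleted (red) and rescue (green) libraries; bars are 95% Poisson intervals of the count. Elane is low in the deleted library (66.6 CPM against 141 and 147), Irf8 is high in rescue (132 against 68.2 and 61.8) and Mmp9 is high in deleted (57.0 against 10.8 and 25.3).

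Of the genes of later stages, S100a8 had H3K4me3 in every library, Ltf was low in all 3, and Mmp9 was low in floxed and rescue but not in deleted. S100a8, which encodes a subunit of calprotectin (chromosome 3, 90669071 to 90670034), had 79.0, 71.3 and 93.6 CPM from 51, 30 and 37 counts, and none of its ratios passed the rule. Ltf, which encodes lactoferrin of the specific granules (chromosome 9, 111019292 to 111042766), had 7, 5 and 7 counts, or 10.8, 11.9 and 17.7 CPM, below the filter. Mmp9, which encodes the gelatinase of the tertiary granules (chromosome 2; 164940326 to 164955850 in RefSeq, a longer span than the 7596 bp counted), had 7, 24 and 10 counts, or 10.8, 57.0 and 25.3 CPM. It also fell short of the filter, and without the filter its deleted to floxed ratio of 5.26 (2.20 to 14.5) and its rescue to deleted ratio of 0.444 (0.189 to 0.962) met the rule, as 2.55% of genes did as higher in the first comparison and 3.37% as lower in the second. Among the 9235 plus-strand genes, Elane stood at percentile 78.1, 55.2 and 79.2 in floxed, deleted and rescue, Prtn3 at 72.5, 75.8 and 71.5, Irf8 at 54.5, 53.8 and 74.8, S100a8 at 57.3, 56.5 and 63.0, and Ltf at 40.0, 38.6 and 42.9. Elane and Prtn3 were therefore the highest of these 5 in the floxed library, with overlapping intervals, and Ltf the lowest in each library.

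In all, 7 of the 10 genes passed the filter for H3K4me3. Of these, 2 (Elane and Ly6c2) were lower in deleted against floxed and 0 higher, and the median log2 ratio was -0.17, where 4.39% of the 6681 genes measured were lower and 3.02% higher, with a median of -0.03. In rescue against deleted 2 were higher and 0 lower, with a median log2 ratio of 0.43, where 4.49% were higher and 5.97% lower and the median was 0.03. In rescue against floxed Irf8 alone was higher, against 1.92% of genes, and 0 were lower, against 3.92%. Without the filter on low counts the calls of Elane, Ly6c2 and Irf8 stand against 1.78% of genes lower in deleted against floxed, 2.01% higher in rescue against deleted and 1.71% higher in rescue against floxed. These comparisons share libraries, so the values of a gene in both are not independent. Scaling to olfactory receptor genes in place of the total gave 398 lower and 140 higher genes in deleted against floxed (in place of 293 and 202), 133 and 1555 in rescue against deleted (in place of 399 and 300) and 77 and 820 in rescue against floxed (in place of 262 and 128). With it Elane, Irf8, Ctsg and S100a8 were higher in rescue against deleted, where the median of all genes had moved from 0.03 to 0.39. Among plus-strand genes alone, a restriction made after the window was examined, 4 of the set were measured, 1 was lower (Elane; 4.06% of 4781 genes) in deleted against floxed and 2 were higher (Elane and Irf8; 4.04%) in rescue against deleted, and Irf8 was higher in rescue against floxed (1.86%).

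**Figure D3:**
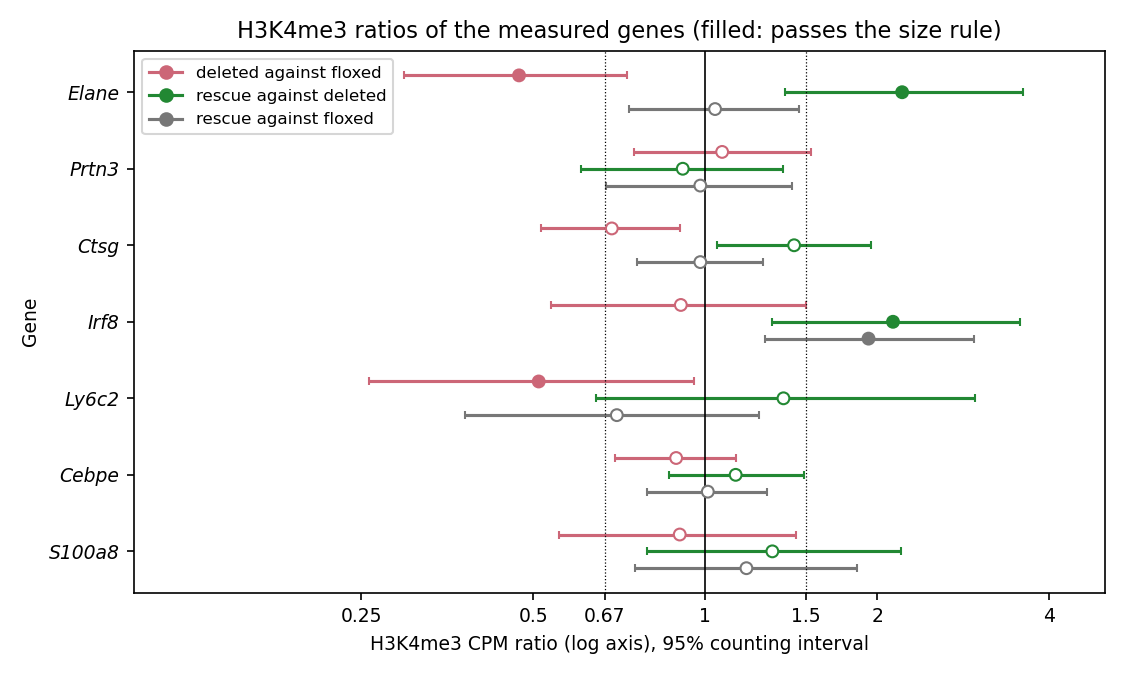
H3K4me3 CPM ratios with 95% counting intervals (horizontal log axis) of the 7 measured genes in the 3 comparisons; filled points pass the size rule and dotted lines mark a 1.5-fold ratio. Elane and Ly6c2 lie left of 1 for deleted against floxed (0.472 and 0.511), and Elane and Irf8 right of 1 for rescue against deleted (2.21 and 2.13).

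**Figure D4:**
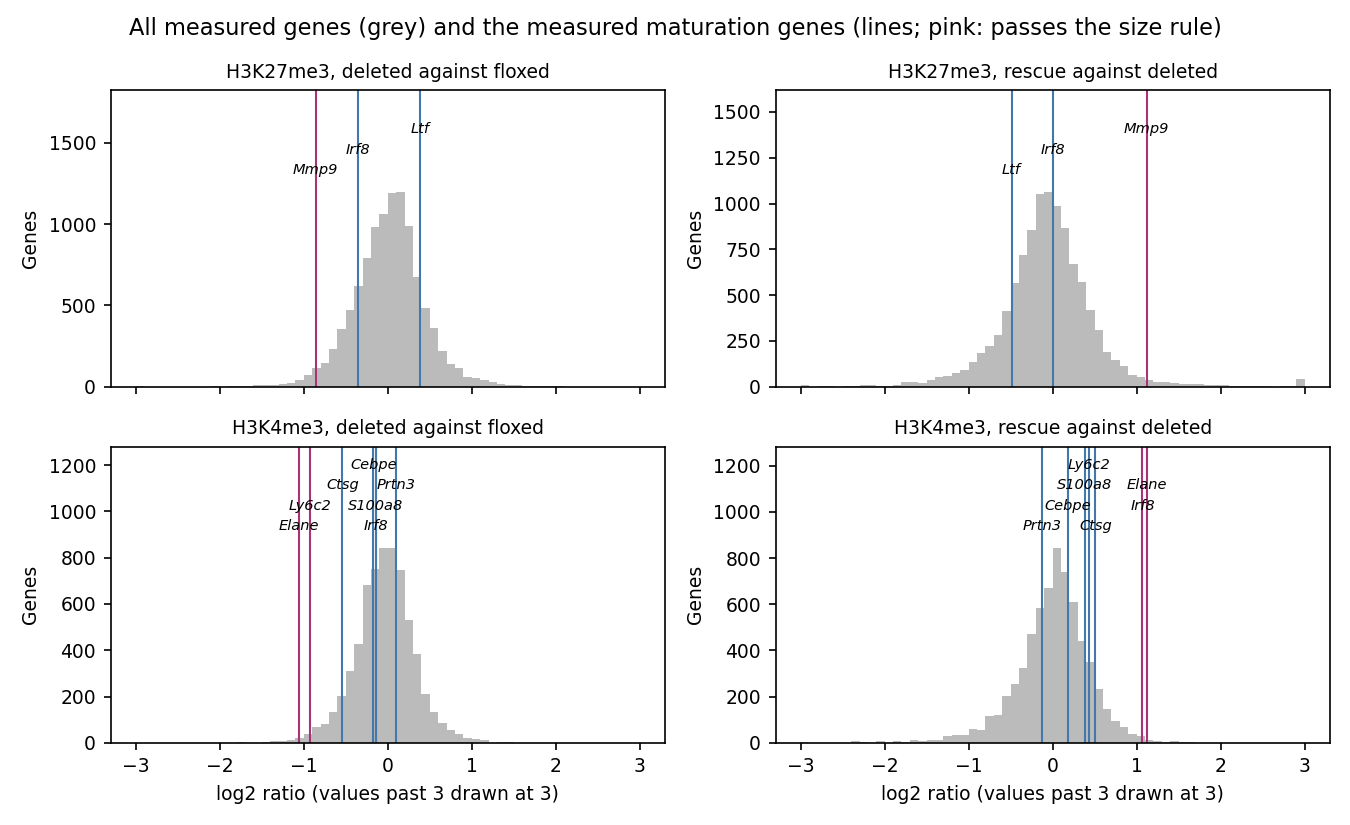
Log2 ratios of all measured genes (grey histograms, number of genes on the vertical axis) with the measured maturation genes as lines, for both marks and for deleted against floxed and rescue against deleted. For H3K4me3, Elane (-1.06) and Ly6c2 (-0.93) lie in the lower flank on the left and Elane (1.12) and Irf8 (1.07) in the upper flank on the right; for H3K27me3, Mmp9 lies at -0.86 and then at 1.12.

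H3K27me3 split the set in a different way. Mmp9 and Irf8 were densely marked, and the other 8 genes reached at most 0.883 CPM per kb. Over its counted span Mmp9 had 217, 124 and 448 H3K27me3 counts, or 11.7, 6.44 and 14.0 CPM per kb, at percentile 96.7, 94.5 and 97.5 of all named genes. The deleted library was the low one and rescue the high one. Mmp9 was lower in deleted against floxed, with a ratio of 0.551 (0.438 to 0.690), and higher in rescue against deleted, with 2.18 (1.78 to 2.68); the rescue to floxed ratio was 1.20 (1.02 to 1.42). At Mmp9 the H3K27me3 and H3K4me3 ratios thus had opposite signs in both comparisons. The H3K4me3 side rests on 7, 24 and 10 counts, and which end of the gene they come from was not settled.

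Irf8 had 487, 397 and 660 H3K27me3 counts, or 9.80, 7.71 and 7.73 CPM per kb. These densities placed it at percentile 96.0, 95.7 and 95.3, beside H3K4me3 at its start in every library. The deleted to floxed ratio of 0.786 (0.687 to 0.899) did not pass the rule, and deleted and rescue were level, with 157 CPM each. The rescue to floxed ratio of H3K27me3 was 0.788 (0.700 to 0.888), an interval that left out 1, but it did not reach 1.5-fold. Ltf had 34, 46 and 54 counts, or 0.592, 0.773 and 0.547 CPM per kb, with ratios of 1.30 (0.819 to 2.10) and 0.708 (0.469 to 1.07). Of these 3 measured genes 1 was lower in deleted against floxed (background 5.39% of 10604 genes lower and 4.72% higher) and 1 higher in rescue against deleted (background 7.07% higher and 11.3% lower), in each case Mmp9, and 0 were called in rescue against floxed (background 8.05% lower and 5.72% higher). With olfactory receptor scaling, deleted against floxed had 1180 lower and 235 higher genes (in place of 572 and 500), rescue against deleted had 808 and 1244 (in place of 1196 and 750), and Mmp9 kept its call in both. The median log2 ratios of these 3 genes were -0.35 and 0.00, against 0.02 and -0.06 over all measured genes.

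The other 7 genes fell below the filter for H3K27me3 and are given by their counts. Elane had 0, 1 and 5 counts in floxed, deleted and rescue, Prtn3 1, 1 and 12, and Ctsg 0, 0 and 10. Ly6c2 had 3, 0 and 11 counts, Cebpe 1, 0 and 4, Ms4a3 0, 7 and 6, and S100a8 0, 1 and 0. Rescue held the most counts in 5 of the 7, but it was also the deepest H3K27me3 library. Where the other library had 0 counts, the lower 95% limit of the ratio is given. For rescue against deleted this limit was 1.35 for Ctsg and 1.51 for Ly6c2, and for rescue against floxed it was 1.30 for Ctsg. For deleted against floxed it was 1.39 for Ms4a3. Prtn3 had a rescue to deleted ratio of 7.24 (1.07 to 309) and Elane one of 3.02 (0.338 to 143). With the filter lifted, Prtn3, Ctsg and Ly6c2 met the rule as higher in rescue against deleted, beside Mmp9, where 4.90% of 23436 genes did. Prtn3 and Ctsg also met it as higher in rescue against floxed (4.28% of genes) and Ms4a3 as higher in deleted against floxed (3.67%, beside 3.38% lower).

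Summed over the azurophil proteases Elane, Prtn3 and Ctsg, a grouping made after their counts were seen, H3K27me3 was 0.409, 0.789 and 6.42 CPM from 1, 2 and 27 counts. H3K4me3 summed over the same 3 genes was 528, 380 and 526 CPM, of which Ctsg, whose window is not read as its start, gave 263, 181 and 258 CPM. In rescue Ctsg, the densest of the 3, had 0.883 CPM per kb, against 7.73 for Irf8 and 14.0 for Mmp9. The median of all named genes in that library was 0.231 CPM per kb. Elane, Prtn3 and Ctsg stood at percentile 64.6, 67.8 and 68.7 in rescue. In floxed they stood at 9.92, 38.4 and 9.92, and in deleted at 48.3, 36.4 and 8.97. These percentiles rest on few counts. The 8 other genes within 50 kb of Elane, leaving out Prtn3, summed to 6.14, 9.47 and 10.7 CPM of H3K27me3. The 4 genes within 50 kb of Ctsg, mast cell protease and granzyme genes, summed to 10.6, 10.3 and 7.61 CPM. Mpo, which encodes myeloperoxidase of the same granules, lay far above both, with 5, 6 and 483 H3K27me3 counts and a rescue to deleted ratio of 48.6 (22.1 to 133).

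**Figure D5:**
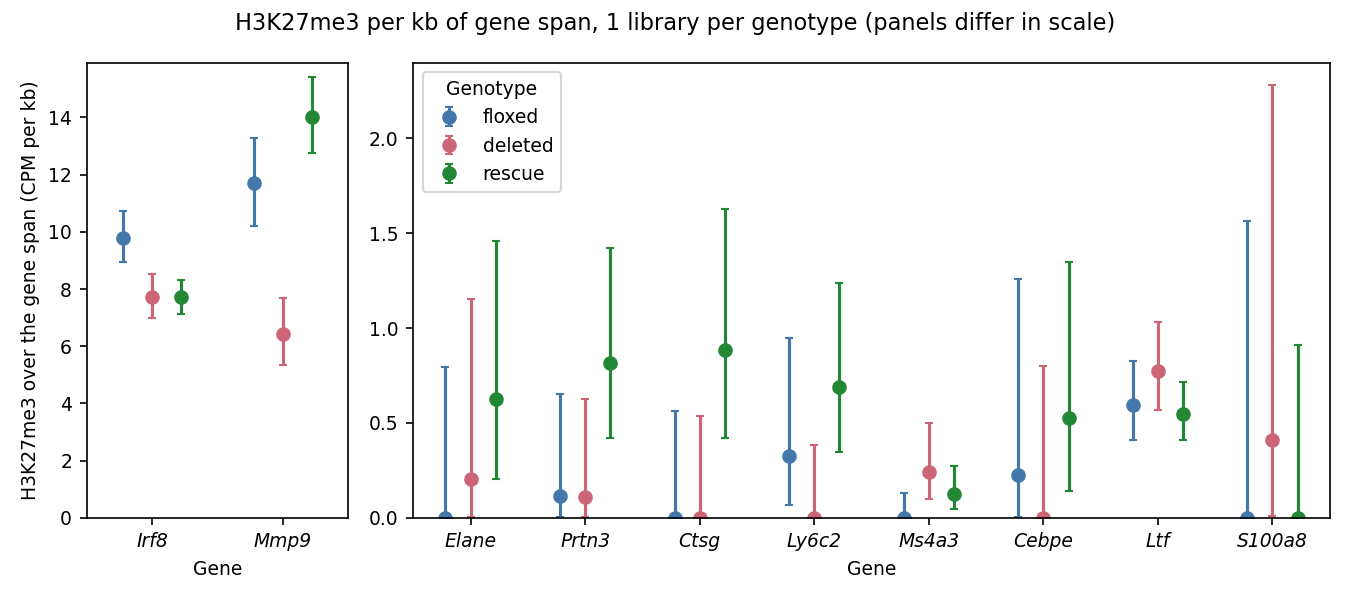
H3K27me3 over the gene span (vertical axis, CPM per kb; the panels differ in scale) in the floxed (blue), deleted (red) and rescue (green) libraries, with 95% Poisson intervals. Mmp9 runs from 11.7 to 6.44 to 14.0 and Irf8 from 9.80 to 7.71 to 7.73, while the values of the 8 genes on the right stay below 1 CPM per kb.

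Within 50 kb of the 10 genes, 4 other genes passed the rule. Within 50 kb of Elane, Ptbp1, a splicing factor gene, had 34, 34 and 14 H3K4me3 counts and a rescue to deleted ratio of 0.438 (0.217 to 0.839), opposite in sign to that of Elane. Misp, 49.2 kb from Prtn3, had 9, 38 and 28 H3K27me3 counts, a deleted to floxed ratio of 4.07 (1.93 to 9.57) and a rescue to deleted ratio of 0.444 (0.263 to 0.744). Pcif1, 48.9 kb from Mmp9, had 57, 18 and 34 H3K4me3 counts, with ratios of 0.484 (0.268 to 0.835) and then 2.01 (1.10 to 3.78). Slc12a5, a transporter gene 4996 bases from Mmp9, had 713, 641 and 935 H3K27me3 counts and was not called, unlike Mmp9 itself. Oosp1, 26.6 kb from Ms4a3, had 58, 39 and 59 H3K27me3 counts and was lower in deleted against floxed, with 0.648 (0.421 to 0.990). S100a9, the partner of S100a8 in calprotectin, lies on the minus strand and had 24, 19 and 19 H3K4me3 counts and no call, in a window that is not read as its start.

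No summit of Flag-tagged Hhex lay near a gene of the set. Within 10 kb of the 10 gene spans there were 0 of the 429 rescue summits, and 0 of the 475 floxed and 220 deleted summits, which come from cells without the tag. Summits within this distance were found at 0.582%, 0.692% and 0.324% of the 25275 genes with a position in rescue, floxed and deleted, so 0 of 10 lies close to the share among all genes. The closest summit was 21.4 kb from Ly6c2 in rescue, and the floxed and deleted lists hold a summit at 21.3 and 21.4 kb as well.

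The genes most like a member were sought by distance over the 6 log2 CPM values, 2 marks in 3 libraries, for the members called in at least 2 comparisons. Nearest to Elane, at distances of 0.57 to 0.63, were Ppib, Snhg6 and Rhob; Ppib, a prolyl isomerase gene, had 77, 27 and 46 H3K4me3 and 0, 1 and 7 H3K27me3 counts. Nearest to Irf8 were Brsk2, Agbl3 and Jph3, at 0.70 to 0.86. Their H3K4me3 counts in floxed, deleted and rescue were 53, 37 and 43 (Brsk2), 54, 27 and 31 (Agbl3), and 40, 37 and 38 (Jph3). The counts of each were lower in rescue than in floxed, unlike those of Irf8 (44, 26 and 52). For Mmp9 the nearest were Map2, Gimap5 and AU022754, at 1.61 to 1.78. The 6681 genes searched average 20 or more H3K4me3 counts, a filter that Mmp9 itself, at 13.7, did not pass. Genes as low in H3K4me3 as Mmp9 were thus left out of the search. Its larger distances are therefore not read as a difference from Elane or Irf8.

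Other myeloid genes, from lists drawn up beside the set, had H3K27me3 calls in either direction. Their few H3K4me3 calls were Xbp1 and Ifngr2, lower in deleted against floxed, and Slpi, Ltb4r1, Rara and Ifngr2, higher in rescue against deleted. In rescue against floxed Mpo and Klf2 were lower and Rara higher, where 3.92% of all measured genes were lower and 1.92% higher. Among all measured genes, 4.39% were lower and 3.02% higher for H3K4me3 in the first comparison, and 5.97% lower and 4.49% higher in the second. For H3K27me3 the shares were 5.39% lower and 4.72% higher, and then 11.3% lower and 7.07% higher. Of the other primary granule genes, 8 of 16 were measured for H3K4me3, and 0 were called in deleted against floxed or in rescue against deleted. For H3K27me3 Mpo was the only one of 4 higher in rescue against deleted. Among secondary and tertiary granule genes, 2 of 5 measured for H3K4me3 were higher in rescue against deleted: the protease inhibitor gene Slpi, with 67, 29 and 60 counts in a window not at its start since it lies on the minus strand, and the leukotriene receptor gene Ltb4r1, with 59, 29 and 53. For H3K27me3, 1 of 4 was lower in deleted against floxed, the membrane metalloproteinase gene Mmp25 with 197, 133 and 190 counts, and 2 were lower in rescue against deleted, Mmp8 with 101, 94 and 76 and Chil3 with 83, 79 and 68.

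Of 13 myeloid transcription factor genes measured for H3K4me3, 1 was lower in deleted against floxed (Xbp1, with 75, 26 and 33 counts) and 1 higher in rescue against deleted (Rara, with 68, 38 and 64). For H3K27me3, 2 of 8 were lower in deleted against floxed, Egr1 with 138, 77 and 132 counts and Maf with 170, 101 and 313, and Maf and Runx1 were higher in rescue against deleted. Monocyte and macrophage genes had 0 of 10 H3K4me3 calls in both comparisons, with median log2 ratios of 0.02 and 0.15 beside -0.03 and 0.03 over all genes. For H3K27me3, 1 of 13 was lower in deleted against floxed (Nr4a1, with 69, 39 and 50 counts), and those higher in rescue against deleted included F13a1 (65, 77 and 351 counts), Klf4 (222, 172 and 437) and Adgre1 (212, 183 and 462), while 2 were lower, Csf1r (38, 42 and 32) and Cx3cr1. Both measured growth factor receptor genes, Il6ra (115, 227 and 52 counts) and Il1r2 (31, 59 and 37), were higher in H3K27me3 in deleted against floxed and lower in rescue against deleted, a course opposite to that of Mmp9. Ifngr2, with 78, 32 and 60 H3K4me3 counts, was lower and then higher, as Elane was. The median H3K4me3 log2 ratios in deleted against floxed and in rescue against deleted were -0.19 and 0.04 for the primary granule list, 0.09 and 0.09 for the secondary and tertiary list, -0.30 and 0.28 for the factors and -0.38 and 0.15 for the 6 measured receptor genes. For H3K27me3 they were -0.07 and 0.07, -0.14 and -0.68, -0.17 and 0.15, and 0.89 and -2.10 in the same order, with 0.02 and -0.12 for the monocyte and macrophage list.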

How the data were processed

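Chromatin immunoprecipitation libraries for H3K27me3, H3K4me3 and the Flag tag were deposited for 3 genotypes, with 1 library each. The 6 histone files hold raw counts for each gene as the authors deposited them, and the 3 Flag files hold summits with a −log10 score as deposited. The tools named in the submitters' processing notes are featureCounts and MACS2, with the build mm10; the place of the H3K4me3 window, the aligner and any use of an input library were not given in these sources. The 568 rows that name no gene (with 0.608% to 0.739% of counts) were left out. From the counts, CPM, ratios with exact conditional binomial (Clopper-Pearson) intervals, and log2 ratios with a prior count of 1 were computed in Python 3.11.15 with scipy 1.17.1. The calling step was tested on simulated counts with counting error alone, so the spread between libraries was not checked. TMM factors (edgeR 4.0.16) and size factors (DESeq2 1.42.0) served as alternative scalings. Positions and promoters came from RefSeq (GRCm38.p6). The 10 genes, the lists and the rules were chosen with earlier results of these data known. Genes outside the set were named where they passed the size rule, within 50 kb of a member or in a list (at most 6 per list and mark), or as nearest in pattern; S100a9 and Slc12a5 were named after their values were seen. Calls of a few genes in the lists are not reported here.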

Additional observations from a re-analysis of the deposited data

How the results depend on the processing

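No paired analysis was possible because each group has 1 library, and for the same reason no library could be left out. No called ratio changed direction under the alternatives, which were other scalings, filters and size rules. With no filter on low counts, H3K27me3 gave 1 gene higher (Ms4a3) in deleted against floxed, 4 higher in rescue against deleted and 2 higher in rescue against floxed (Prtn3 and Ctsg), and H3K4me3 gave 1 higher in deleted against floxed and 1 lower in rescue against deleted, both Mmp9. With a ratio of at least 2, 0 genes were lower for H3K27me3 and 1 (Elane) for H3K4me3 in deleted against floxed, and 0 were higher for H3K4me3 in rescue against floxed. With a mean of at least 100 counts, only Ctsg and Cebpe were measured for H3K4me3, and 0 were lower in deleted against floxed, 0 higher in rescue against deleted and 0 higher in rescue against floxed. With the interval alone, H3K27me3 gave 2 lower (Irf8 and Mmp9) in deleted against floxed, and 1 lower (Irf8) and 1 higher (Mmp9) in rescue against floxed. Among plus-strand genes only, 1 gene was lower for H3K4me3 in deleted against floxed; this was chosen after seeing the data. Scaling to olfactory receptor genes made 4 genes higher for H3K4me3 in rescue against deleted, and moved the median H3K27me3 log2 ratio of all genes in deleted against floxed from 0.02 to -0.15, with Mmp9 still the only call. Ctsg was also lower for H3K4me3 in deleted against floxed with TMM factors, at 0.656, and with olfactory scaling, at 0.657. With a margin of 50 kb, Ly6c2 was the 1 gene near a Flag summit in each of the floxed, deleted and rescue lists (1, 1 and 1). Depth limits the H3K4me3 ratio of Ly6c2, whose interval for deleted against floxed runs from 0.258 to 0.955.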

Other observations

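Genes of the stem and progenitor state, the counterpart of maturation, had calls for both marks, given beside the share of all measured genes. Of 16 measured for H3K27me3, 1 was lower in deleted against floxed, the homeobox gene Hoxa10, where 5.39% of all measured genes were lower. Its counts were 239, 148 and 560 in floxed, deleted and rescue. In rescue against deleted 3 were higher: Hoxa10, the transcription factor gene Gata2 (191, 149 and 433) and Sox4 (149, 114 and 294). Of all measured genes 7.07% were higher and 11.3% lower in that comparison. Kit, the stem cell factor receptor gene, was lower in rescue against deleted, at 0.434 (0.358 to 0.526) of the deleted level from 255, 260 and 187 counts. For H3K4me3, Hoxa10 was the only one of 7 called, where 4.39% of all measured genes were lower in deleted against floxed. It stood at 0.617 (0.404 to 0.923) of the floxed level in deleted, from 87, 35 and 41 counts. Hoxa10 lies on the minus strand, so that window is not read as its start.

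Calls in lists of other cell types stand against the same shares of all measured genes. For H3K27me3 the B-cell list had 0 of 4 called in either comparison, and the T-cell and NK-cell list 1 of 8, Tcf7 (71, 87 and 81 counts), lower in rescue against deleted. The erythroid and megakaryocyte list had Epor (253, 163 and 363) lower in deleted against floxed. In the mast cell, basophil and eosinophil list, Cpa3 (83, 132 and 167) was higher and Prg2 (43, 25 and 42) lower in deleted against floxed, and in the stromal and endothelial list Col1a1 (159, 179 and 192) and Pdgfrb (145, 160 and 175) were lower in rescue against deleted. For H3K4me3, 1 B-cell gene and 2 stromal and endothelial genes were measured and 0 were called.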
